A study of Mus musculus with 16 samples.

Results

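Proteasome genes were followed across control and Zbtb17 conditional knockout (cKO) mouse hearts after transverse aortic constriction (TAC) or a sham operation. Every gene symbol of the Psma, Psmb, Psmc, Psmd, Psme, Psmf and Psmg series that carries a number was taken, which gave 50 genes of the 19938 with a probe set of 1 symbol. Each gene was represented by its probe set of highest mean over the 16 arrays. Of the 50, 48 encode a subunit, activator, inhibitor or assembly chaperone of the proteasome. The other 2, Psmc3ip and Psme3ip1, only share the name and were set aside.

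The proteasome is the protease that degrades proteins tagged with ubiquitin. Its barrel-shaped core particle is made of alpha rings, which form the gate, and beta rings, in which Psmb5, Psmb6 and Psmb7 carry the active sites. A regulatory particle of Psmc ATPases and Psmd subunits binds tagged proteins, removes the ubiquitin and unfolds them into the core. Psme activators bind the same end of the barrel, and Psmf1 is known as an inhibitor. In cells exposed to interferon, Psmb8, Psmb9 and Psmb10 take the place of Psmb5, Psmb6 and Psmb7 and form the immunoproteasome, which supplies peptides for antigen presentation. In heart muscle the proteasome is known for the turnover of sarcomere and signalling proteins.

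The study hybridised total heart RNA of male mice of the C57BL/6 background to Affymetrix microarrays, 16 in all. The mice were 8 to 10 weeks old before surgery, and hearts were taken 4 weeks after it. The groups were control mice after sham, control mice after TAC, cKO mice after sham and cKO mice after TAC, with 4 numbered arrays in each. The labels do not say that the arrays of a group come from separate mice, so p-values measure the spread between these arrays, which may be technical. TAC narrows the aorta and puts a pressure load on the left ventricle. The promoter that drives the recombinase, the deleted exons and the genotype of the control mice are not named by the labels.

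Deposited log2 values ran from 2.34 to 14.35, with array medians of 4.85 to 4.97 and Spearman correlations between arrays of 0.972 to 0.987. The tissue label was borne out by cardiomyocyte markers, with Myh6 at 12.88 or above and Tnnt2 at 13.4 or above on every array. Zbtb17 itself averaged 6.36 ± 0.13 in control sham and 6.52 ± 0.07 in cKO sham hearts (SD, n = 4), so its 1 probe set did not separate the genotypes, and the labels do not place it relative to the deletion. Myl7, an atrial myosin light chain, exceeded 6 on 6 arrays spread over all 4 groups. Atf3, a stress gene, exceeded 8 on 3 sham arrays, namely control sham 3 and 4 and cKO sham 1. Results were recomputed without each of these sets of arrays. Leaving out the Myl7 set keeps only arrays 3 and 4 of control TAC and of cKO TAC. Leaving out the Atf3 set keeps only arrays 1 and 2 of control sham.

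A total of 46 of the 48 proteasome genes passed the filter on dim probe sets, a mean log2 value above 4.37. Psma8, a testis form of an alpha subunit, with a mean of 3.97, and Psmb11, the thymus form of Psmb5, with a mean of 4.16, did not. The 46 comprised 7 alpha and 7 constitutive beta subunits of the core, 3 immunosubunits, 6 ATPases and 11 other subunits of the regulatory particle, 4 activators, 1 inhibitor and 7 assembly chaperones. Psmb5 was highest of the core genes in its probe set's mean, at 11.64, but levels of different probe sets are not on one scale and no order between genes is drawn from them.

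None of the 46 proteasome genes differed between groups at an adjusted p under 0.05 (limma, Benjamini-Hochberg over 21333 probe sets) in any of 7 comparisons. The shares of all probe sets past this threshold were 0.0% for TAC against sham in control hearts, 0.0% in cKO hearts, 0.0234% for cKO against control after sham, 0.00469% after TAC, 0.0% for TAC averaged over genotype, 0.0188% for cKO averaged over surgery and 0.0% for the interaction. At an unadjusted p under 0.05, TAC against sham in control hearts had 4 of 46 genes higher and 0 lower, where 4.9% of all probe sets were higher and 3.42% lower. The same comparison in cKO hearts had 0 higher and 2 lower, against 3.85% and 2.93%. Against those shares the 46 genes stood at 8.7% higher in control hearts and 4.35% lower in cKO hearts.

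Comparing the genotypes, cKO against control after sham had 6 of 46 genes higher and 0 lower at an unadjusted p under 0.05, against 5.96% and 4.72% of all probe sets. After TAC, 1 was higher and 2 were lower, against 3.83% and 3.75%. Averaged over surgery, 7 were higher and 1 lower, against 8.24% and 6.68%, and averaged over genotype TAC had 5 higher and 1 lower, against 7.24% and 4.8%. The interaction had 0 higher and 3 lower, against 1.65% and 2.05%. As shares of the 46 genes, the 6 higher after sham are 13.0%, the 7 averaged over surgery 15.2%, the 5 averaged over genotype 10.9% and the 3 of the interaction 6.52%. By sign alone, 37 of 46 genes were above 0 for TAC in control hearts (54.5% of all probe sets were), 20 in cKO hearts (51.6%), 39 for cKO after sham (50.1%), 24 after TAC (47.9%), 33 for TAC averaged over genotype (53.7%), 31 for cKO averaged over surgery (48.7%) and 10 for the interaction (46.5%). The comparisons in control hearts and after sham share the control sham arrays. With group means removed, pairs of the 46 genes had a median Pearson r of 0.135, so these counts are not of independent genes. Leaving out 1 array at a time gave 30 to 39 above 0 for TAC in control hearts and 34 to 41 for cKO after sham. Differences were small in size. The farthest from 0 was a fold of 1.25 in control hearts, 1.19 in cKO hearts, 1.24 between genotypes after sham and 1.22 after TAC, and 95% confidence intervals of single genes in these 4 comparisons reached no lower than -0.44 and no higher than 0.54 on the log2 scale.

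**Figure D1:**
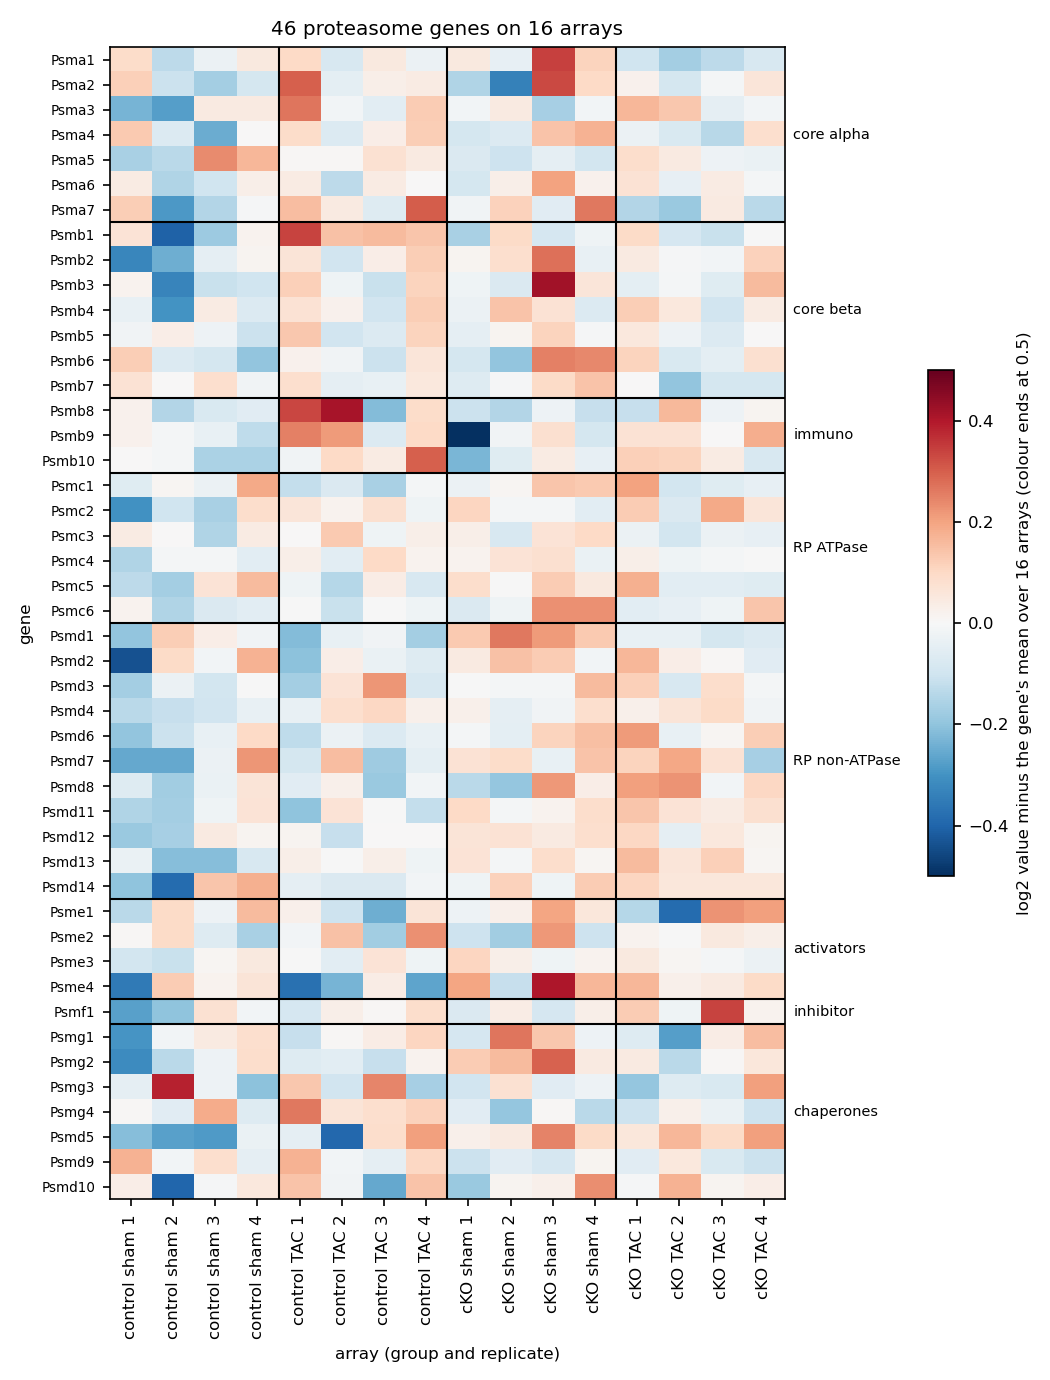
Heat map of the 46 proteasome genes (rows, ordered by role; RP, regulatory particle) on the 16 arrays (columns, by group and replicate); colour is the log2 value minus the gene's mean over all arrays, with the scale ending at 0.5 either way. Control sham 1 is below the mean for 15 of 17 regulatory particle genes, control TAC 1 is above it for all 14 core genes, and Psmb9 is lowest on cKO sham 1, at 6.11.

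**Figure D2:**
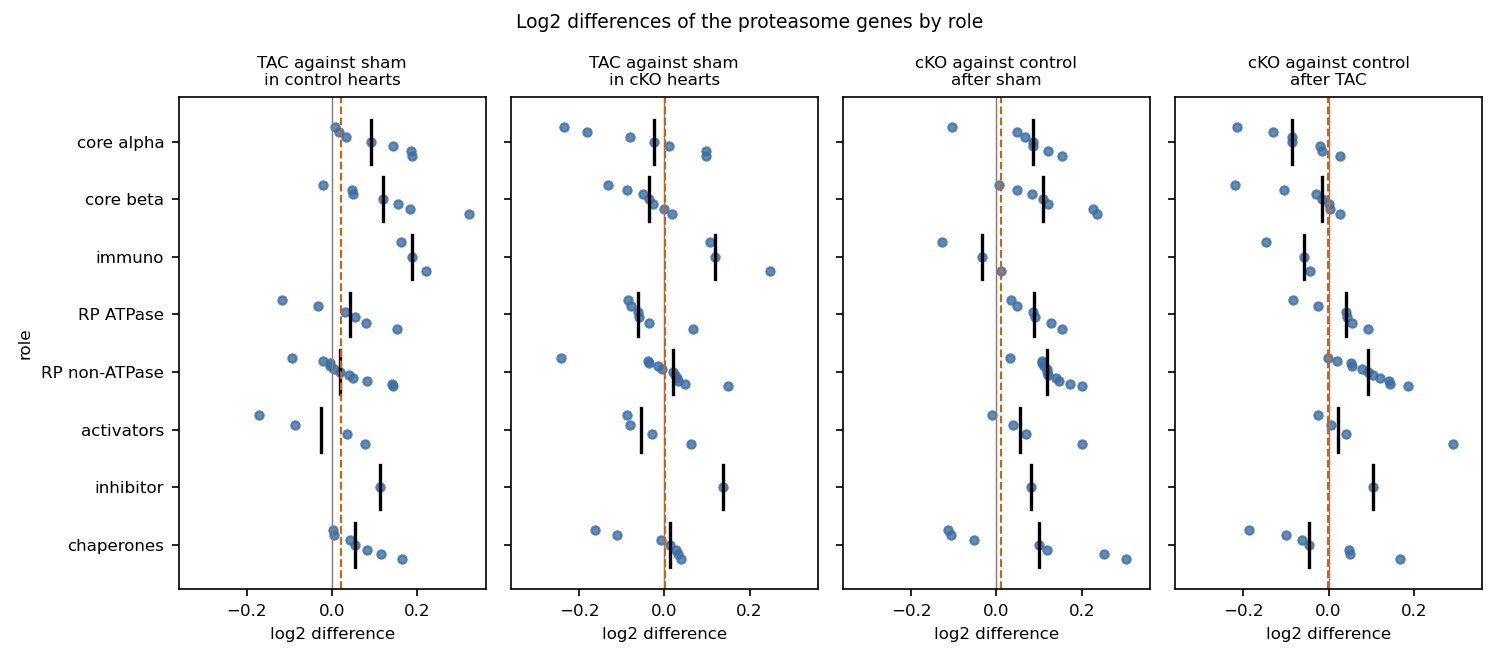
Log2 difference (x axis) of each proteasome gene (points) by role (y axis) in 4 comparisons; black bars are medians of a role, the grey line is 0 and the dashed line is the median of all 13670 tested genes. Core genes lie mostly right of 0 for TAC in control hearts and for cKO after sham, comparisons that share the control sham arrays, and all 17 regulatory particle genes lie right of 0 for cKO after sham.

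The core particle genes averaged higher after TAC in control hearts. Of the 14 alpha and constitutive beta subunits, 13 were on average higher after TAC than after sham in control hearts, with a median log2 difference of 0.105 against 0.02 over all 13670 tested genes. In cKO hearts 4 of the 14 were higher and 9 lower, with a median of -0.031 against 0.0025. Between genotypes 13 of the 14 were higher in cKO than control hearts after sham (median 0.085), and 3 were higher and 10 lower after TAC (median -0.025). In the first of these comparisons 5 of 5 fibroblast markers (median 0.315), 4 of 4 endothelial markers (median 0.21) and 10 of 11 leukocyte markers (median 0.38) were also on average higher after TAC, none of them called. In cKO hearts 5 of 5 fibroblast markers (median 0.37), 3 of 4 endothelial markers (0.13) and 10 of 11 leukocyte markers (0.445) averaged higher after TAC. Cardiomyocyte markers averaged lower after TAC in 5 of 7 genes in control hearts and in 7 of 7 in cKO hearts. None of these markers was called. The part of these cell types in the core particle values was not tested. The comparison of surgery in control hearts and that of genotype after sham share the control sham arrays. Quantile normalization left 11 of 14 higher in both the first and the third of these comparisons, with medians of 0.086 and 0.059. The median between genotypes after sham was 0.048 without cKO sham 3 and 0.141 without control sham 1. Taking each array out in turn for TAC in control hearts left 10 to 13 genes higher and a median of 0.072 to 0.131. In cKO hearts the median turned positive, at 0.014, without cKO sham replicate 3, the array on which Psma1, Psma2 and Psmb3 were highest.

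Psmb1, a beta subunit without an active site, had the smallest unadjusted p of the core genes in any comparison. Its log2 values were 8.72, 8.25, 8.47 and 8.67 in control sham hearts, 8.99, 8.80, 8.81 and 8.79 for control TAC, 8.49, 8.75, 8.57 and 8.63 for cKO sham, and 8.75, 8.57, 8.54 and 8.65 in cKO TAC. All control TAC values lay above all control sham values, a separation that 2.27% of probe sets showed in that direction, and above all cKO TAC values, which 1.89% showed. The log2 difference between TAC and sham was 0.32 ± 0.098 (SE) in control hearts (limma adjusted p = 0.477) and 0.02 ± 0.098 in cKO hearts (adjusted p = 0.985). After TAC, cKO hearts were lower by a log2 difference of -0.22 ± 0.098 (adjusted p = 0.644), and after sham the difference was 0.08.

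The gene with the largest interaction of genotype and surgery was Psma7, an alpha ring subunit. Its values were 8.55, 8.14, 8.28 and 8.42 in control sham, 8.58, 8.47, 8.36 and 8.73 for control TAC, 8.41, 8.54, 8.37 and 8.69 for cKO sham, and 8.28, 8.24, 8.47 and 8.29 in cKO TAC hearts. Its log2 difference after TAC was 0.19 ± 0.10 in control and -0.18 ± 0.10 in cKO hearts (SE), and the interaction was -0.37 ± 0.15 with a limma adjusted p of 1. Each pair of groups overlapped. Psma1, another alpha subunit, read 9.85, 9.76, 10.14 and 9.91 in cKO sham hearts and 9.70, 9.63, 9.67 and 9.72 in cKO TAC hearts. These groups did not overlap, which 2.08% of probe sets showed in that direction, and the log2 difference was -0.235 ± 0.078 (adjusted p = 0.685).

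Among the remaining core genes, Psmb2 was lowest in control sham hearts, at 8.835 ± 0.16, against 9.02 ± 0.09 for control TAC, 9.07 ± 0.14 for cKO sham and 9.02 ± 0.06 in cKO TAC (SD, n = 4). The log2 difference between genotypes after sham was 0.235 ± 0.087 (SE, limma adjusted p = 0.387). Of the active-site subunits, Psmb5 and Psmb6 differed little. Psmb5 group means ran from 11.61 to 11.66 and Psmb6 from 8.81 to 8.92. Psmb7, which carries the trypsin-like activity, was lowest after TAC in cKO hearts, at 9.745 ± 0.082 against 9.88 ± 0.095 after sham (SD), a log2 difference of -0.13 (adjusted p = 0.731). Over the 14 core genes the interaction was negative in 13, with a median of -0.126 against -0.015 over all tested genes, and 3 of them, Psma7, Psma1 and Psmb1, were lower at an unadjusted p under 0.05, where 2.05% of all probe sets were.

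The immunosubunits averaged higher after TAC in both genotypes. Psmb8, Psmb9 and Psmb10 had log2 differences of 0.22, 0.16 and 0.19 in control hearts and 0.11, 0.25 and 0.12 in cKO hearts, where the medians of all tested genes were 0.02 and 0.0025. Single arrays moved these values by over 1.5 times. In cKO hearts Psmb9 was 0.09 and Psmb10 0.068 without cKO sham 1, and Psmb8 was 0.056 without cKO TAC 2. In control hearts Psmb8 was 0.134 without control TAC 2 and 0.344 without control TAC 3, and Psmb10 was 0.122 without control TAC 4. The groups overlapped for each gene in both comparisons, and adjusted p lay between 0.592 and 0.89. Averaged over genotype, Psmb10 was higher after TAC by 0.15 ± 0.059 (adjusted p = 0.329), Psmb9 by 0.205 ± 0.089 (adjusted p = 0.377, and 0.126 without cKO sham 1) and Psmb8 by 0.16 ± 0.079 (adjusted p = 0.426). Between genotypes, averaged over surgery, the log2 differences were -0.091 for Psmb8, -0.085 for Psmb9 and -0.024 for Psmb10 relative to control, all 3 with intervals that span 0.

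Psmb8, the immune counterpart of Psmb5, read 5.88, 5.71, 5.78 and 5.80 in control sham hearts, 6.19, 6.27, 5.64 and 5.95 for control TAC, 5.75, 5.71, 5.83 and 5.74 for cKO sham, and 5.74, 6.02, 5.83 and 5.87 in cKO TAC. Its highest values were on control TAC 1 and 2, and control TAC 3 had the lowest of all 16. Both high arrays are among the 6 with Myl7 above 6, and without those 6 arrays the difference in control hearts was -0.002. Control TAC is then represented by arrays 3 and 4 alone, at 5.64 and 5.95. The part of atrial tissue in the Psmb8 values was not tested.

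Psmb9, the counterpart of Psmb6, read 6.77, 6.74, 6.71 and 6.62 in control sham hearts, 7.0, 6.96, 6.68 and 6.85 for control TAC, 6.11, 6.73, 6.83 and 6.66 for cKO sham, and 6.82, 6.82, 6.75 and 6.93 in cKO TAC. The value of 6.11, on cKO sham 1, is the lowest of all arrays by a wide margin, and this array also has an Atf3 value of 9.58. Without it the log2 difference between genotypes after sham went from -0.13 to 0.03. Psmb10, the counterpart of Psmb7, read 8.36, 8.35, 8.20 and 8.20 in control sham hearts, 8.34, 8.46, 8.40 and 8.66 for control TAC, 8.13, 8.30, 8.40 and 8.32 for cKO sham, and 8.48, 8.47, 8.40 and 8.28 in cKO TAC. It was highest on control TAC 4 and lowest on cKO sham 1.

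**Figure D3:**
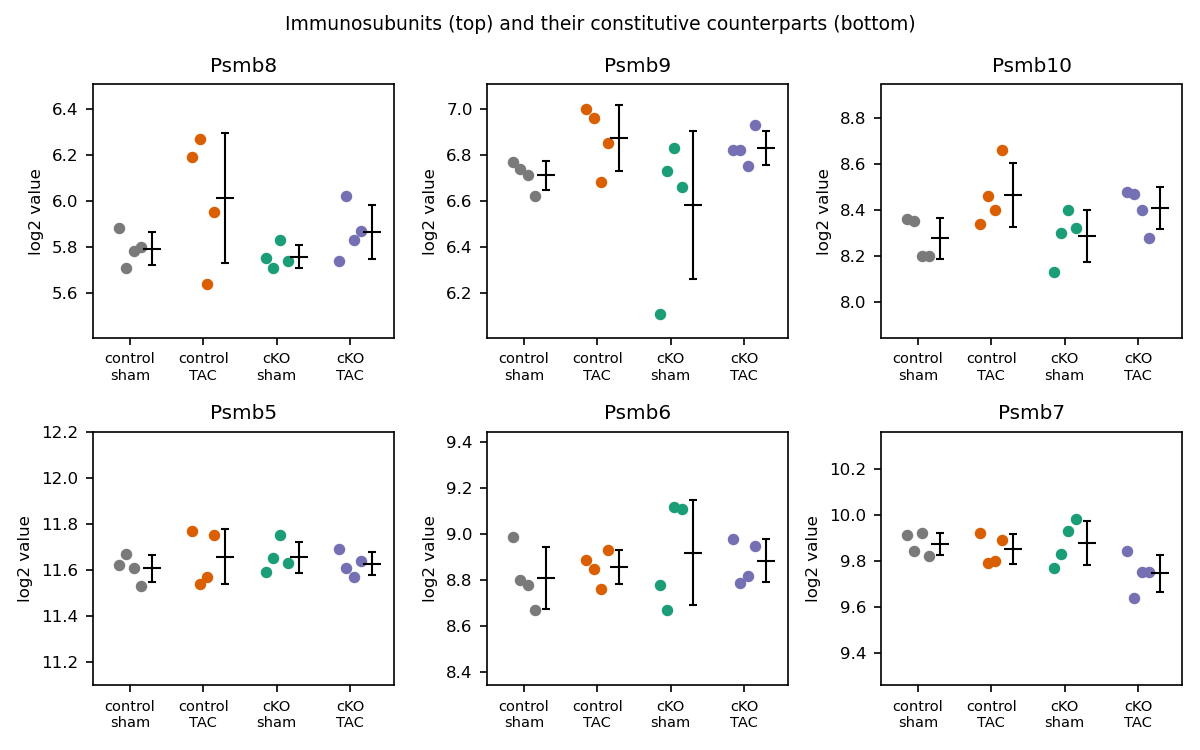
Log2 values (y axis, each panel 1.1 units tall) of the immunosubunits Psmb8, Psmb9 and Psmb10 and of the constitutive subunits they replace, Psmb5, Psmb6 and Psmb7, by group (x axis); points are arrays, and bars are the mean ± SD of 4. The immunosubunits average higher after TAC in both genotypes, with overlap. Group means span 0.049 for Psmb5, 0.11 for Psmb6 and 0.133 for Psmb7.

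Within an array, the log2 value of each immunosubunit minus that of its counterpart gives a measure of their relative signal, whose size is set by the probe sets and of which only the change between groups is read. For Psmb10 minus Psmb7 it averaged -1.59 ± 0.10 in control sham and -1.39 ± 0.15 for control TAC hearts, and -1.59 ± 0.07 for cKO sham and -1.34 ± 0.12 with TAC in cKO hearts (SD, n = 4), a change of 0.21 in control and 0.25 in cKO hearts. In cKO hearts every TAC value, from -1.47 to -1.17, was above every sham value, from -1.66 to -1.53. How often other pairs of genes separate in this way was not computed. Psmb10 itself overlapped there, and the log2 difference was 0.12 for Psmb10 and -0.13 for Psmb7. Psmb9 minus Psmb6 changed by 0.115 and 0.28, and Psmb8 minus Psmb5 by 0.17 and 0.135, with overlap in both genotypes.

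The genes around the immunoproteasome were followed through 3 lists: antigen presentation, interferon response and leukocyte markers. Of the 15 leukocyte genes 11 passed the filter, and Cd79a, Nkg7 and S100a8, which mark B cells, cytotoxic cells and neutrophils, lay below it with a probe set each. The mean of the 11 ranged from 6.455 to 7.05 in control sham, 6.80 to 7.39 for control TAC, 6.49 to 6.76 for cKO sham and 6.75 to 7.435 in cKO TAC hearts. Averaged over genotype, 10 of 11 leukocyte genes and 10 of 12 interferon response genes averaged higher after TAC, with medians of 0.37 and 0.36, against 5 of 11 antigen presentation genes with a median of -0.0088. Between genotypes after sham, 0 of 12 interferon response genes averaged higher in cKO hearts, with a median of -0.28. After TAC 5 of the 12 averaged higher and 7 lower in cKO hearts, with a median of -0.064. None of the genes of these 3 lists was called in any comparison. In these bulk samples more leukocytes and more RNA per cell cannot be told apart, and their part in the Psmb8, Psmb9 and Psmb10 values was not tested.

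Over the 16 arrays Psmb10 had a Pearson r of 0.65 with the leukocyte mean (permutation p = 0.00568, 0.0511 after adjustment over 9 relations) and a Spearman rho of 0.63 (p = 0.01, adjusted 0.045). Without cKO TAC 2 and control TAC 4, the arrays farthest from the median, r was 0.38 (permutation p = 0.176), so the Pearson value depends on those arrays. Without the 6 Myl7 arrays it was 0.60 (permutation p = 0.0831). Psmb8 had r = 0.56 with the same mean (p = 0.0235, adjusted 0.0705, permutation) and rho = 0.67 (p = 0.00624, adjusted 0.045), and r stayed at 0.56 without those 2 arrays. Removing the group means left r at 0.45 for Psmb10 (permutation p = 0.111) and 0.37 for Psmb8 (p = 0.254). With antigen presentation genes Psmb8 had r = 0.56 (permutation p = 0.0229, adjusted 0.0705), 0.66 without the 2 farthest arrays and 0.505 with group means removed. The rho of Psmb8 with these genes was 0.48 (permutation p = 0.0638, adjusted 0.141). Without the 6 Myl7 arrays this r was 0.37 (permutation p = 0.292). Psmb10 had r = 0.54 with interferon response genes (permutation p = 0.0327, adjusted 0.0736) and 0.0027 without cKO TAC 2 and control TAC 4. The rho of Psmb10 with these genes was 0.37 (permutation p = 0.156, adjusted 0.233). With antigen presentation genes Psmb10 had r = 0.069 (permutation p = 0.803). Psmb8 had r = 0.39 with interferon response genes (permutation p = 0.14, adjusted 0.252) and rho = 0.55 (p = 0.0304, adjusted 0.0912). Psmb9 had r of 0.10 to 0.29 with the 3 lists, and its permutation p values were 0.274 or more. Arrays of all 4 groups are pooled here, so part of each r is the difference between groups.

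**Figure D4:**
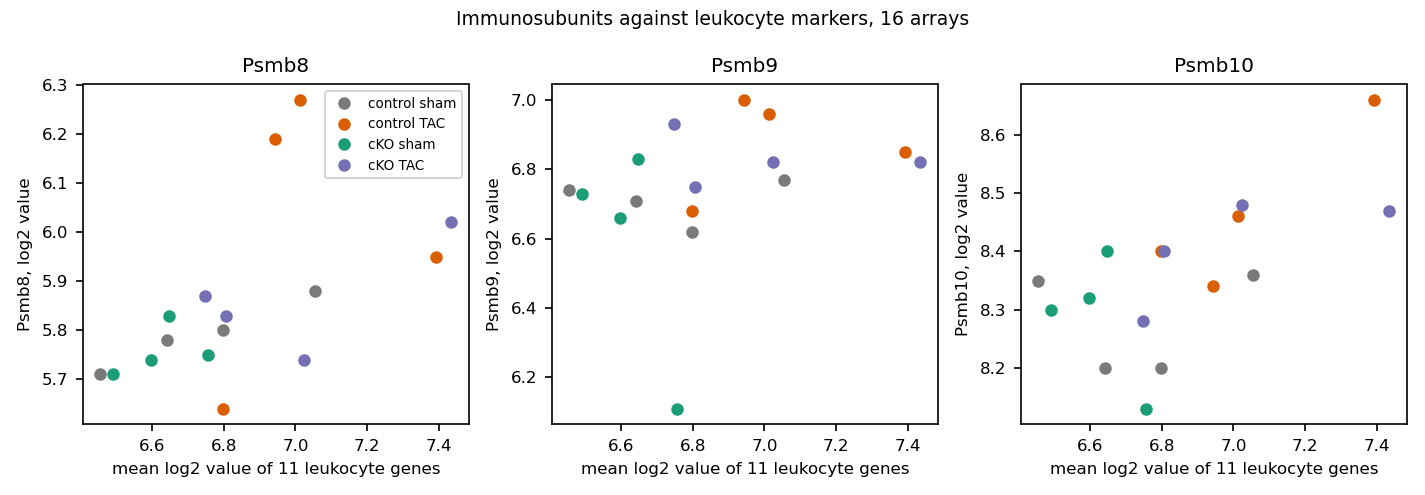
Log2 value of Psmb8, Psmb9 and Psmb10 (y axes) against the mean log2 value of 11 leukocyte genes (x axes) on 16 arrays, coloured by group. TAC arrays lie mostly to the right, where Psmb8 and Psmb10 tend to be higher (r = 0.56 and 0.65), and the lowest Psmb9 point, 6.11, is cKO sham 1.

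Promoters of the 3 immunosubunit genes and of Psmb5 are shown so that the immune subunits can be set beside the catalytic subunit that Psmb8 replaces. The sequences are from RefSeq on GRCm38.p6, run from 250 bases before to 50 bases after the start of transcription, and are given 5′ to 3′ on the gene's strand in lower case. Capitals mark the only match of each promoter to the 5 motifs searched on both strands. Psmb8 (chr17:34197945-34198244, plus strand) has a match to TTCNNNGAA, the core of the gamma-activated site bound by STAT factors, Psmb9 (chr17:34187281-34187580, minus strand) to a CCAAT box on the opposite strand, Psmb10 (chr8:105938343-105938642, minus strand) to CACGTG, the E-box bound by Myc and Max, and Psmb5 (chr14:54617946-54618245, minus strand) to TGACNNNGC, the core of the antioxidant response element.
Psmb8: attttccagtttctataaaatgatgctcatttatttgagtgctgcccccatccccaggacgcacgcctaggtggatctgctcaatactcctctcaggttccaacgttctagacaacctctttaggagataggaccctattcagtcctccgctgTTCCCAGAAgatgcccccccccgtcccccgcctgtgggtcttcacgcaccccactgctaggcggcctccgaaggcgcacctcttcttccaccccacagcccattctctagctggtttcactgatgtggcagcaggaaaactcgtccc
Psmb9: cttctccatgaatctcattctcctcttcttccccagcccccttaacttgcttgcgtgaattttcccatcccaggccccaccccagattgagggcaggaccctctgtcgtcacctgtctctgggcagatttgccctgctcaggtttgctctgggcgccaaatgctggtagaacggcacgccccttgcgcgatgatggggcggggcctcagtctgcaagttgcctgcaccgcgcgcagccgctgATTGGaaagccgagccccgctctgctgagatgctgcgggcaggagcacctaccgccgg
Psmb10: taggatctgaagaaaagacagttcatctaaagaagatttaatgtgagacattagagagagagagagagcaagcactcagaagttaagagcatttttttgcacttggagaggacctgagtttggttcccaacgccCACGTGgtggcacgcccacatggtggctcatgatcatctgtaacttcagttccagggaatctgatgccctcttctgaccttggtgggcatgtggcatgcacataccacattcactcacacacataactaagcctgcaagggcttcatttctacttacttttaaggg
Psmb5: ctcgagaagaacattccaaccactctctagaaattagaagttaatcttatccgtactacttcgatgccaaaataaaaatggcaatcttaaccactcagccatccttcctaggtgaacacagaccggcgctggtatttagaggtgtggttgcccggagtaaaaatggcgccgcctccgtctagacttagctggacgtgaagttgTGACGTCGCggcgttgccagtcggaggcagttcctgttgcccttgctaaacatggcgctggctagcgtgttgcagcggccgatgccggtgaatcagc

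Of the 48 genes, 40 had a promoter in the RefSeq table, 43 promoters in all. The E-box CACGTG was in 9.3% of them (Psma4, Psmb10, Psmd9 and Psme3) and in 7.15% of all 32851 promoters, TGACNNNGC in 6 of 43 and in 12.4%, CCAAT in 32.6% and 37.4%, and TTCNNNGAA in 6.98% and 8.3%. The core of the interferon-stimulated response element, 2 copies of GAAA with 2 bases between them, was in 11.6%, the promoters of Psmb3, Psmd4, Psmd9, Psme1 and Psmg4, and in 3.44% of all. These are matches of letters in a window and say nothing of binding. The Psmb9 promoter shares 275 bases with that of Tap1, the peptide transporter gene that is read in the opposite direction. Averaged over surgery, Tap1 was lower in cKO hearts, at -0.30 ± 0.13 on the log2 scale (SE, limma adjusted p = 0.286), against -0.085 ± 0.089 for Psmb9. Nlrc5, an activator of class I antigen presentation genes, was lower by -0.20 ± 0.079 (adjusted p = 0.26). Erap1, also of the antigen presentation list, was higher by 0.14 ± 0.062 (adjusted p = 0.304). Of the 11 genes of that list, 4 were higher and 7 lower in this comparison.

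The regulatory particle genes averaged higher in cKO than in control hearts. All 17, 6 ATPases and 11 other subunits, averaged higher in cKO than control hearts after sham, with a median log2 difference of 0.1175 against 0.01 over all tested genes, and 14 of 17 were higher after TAC, with a median of 0.055 against -0.0025. Quantile normalization left 14 of 17 higher after sham (median 0.064) and 14 after TAC (0.048), and median centring 17 (0.176) and 15 (0.068). The median of the 17 after sham was 0.072 without control sham 1, and after TAC 12 of 17 were higher, with a median of 0.035, without the 6 Myl7 arrays. Averaged over surgery 16 of 17 were higher, and 4 genes had an unadjusted p under 0.05 where 8.24% of all probe sets were higher, all among the 11 non-ATPase subunits: Psmd13, Psmd1, Psmd11 and Psmd6. The 11 non-ATPase subunits were each higher in cKO hearts averaged over surgery (median 0.119), under both scalings and without any 1 array (median 0.09 to 0.134).

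Per array, the mean of these 11 subunits was 8.64, 8.695, 8.79 and 8.885 in control sham hearts, 8.72, 8.84, 8.805 and 8.77 for control TAC, 8.85, 8.86, 8.89 and 8.91 for cKO sham, and 8.94, 8.87, 8.86 and 8.83 in cKO TAC. Control sham 1 and 2 were the lowest, control sham 4 lay among the cKO values, and the spread was widest in control sham hearts. The median difference after sham was 0.118 with all arrays, 0.088 without control sham replicate 1 and 0.169 without control sham replicate 4. Cardiomyocyte marker genes also averaged higher in cKO hearts after sham, with a mean of 13.1 to 13.26 in control and 13.27 to 13.32 in cKO hearts and 6 of 7 genes higher, none of them called. Endothelial markers were lower in cKO hearts in 4 of 4 genes in both surgeries, none called. Their part in the regulatory particle values was not tested.

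Psmd1, the large scaffold subunit of the regulatory particle base, was highest in cKO sham hearts. It read 9.70, 10.02, 9.93 and 9.88 in control sham, 9.68, 9.86, 9.88 and 9.73 for control TAC, 10.03, 10.16, 10.11 and 10.03 for cKO sham, and 9.86, 9.86, 9.81 and 9.83 in cKO TAC. The cKO sham values lay above those of every other array. The log2 difference from control sham was 0.20 ± 0.070 (SE, limma adjusted p = 0.382), and that between cKO TAC and cKO sham was -0.24 ± 0.070 (adjusted p = 0.668). These comparisons share the cKO sham arrays. Averaged over genotype, Psmd1 was lower after TAC by -0.17 ± 0.050 (adjusted p = 0.245), the only proteasome gene lower at an unadjusted p under 0.05 there.

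Psmd13, a subunit of the lid, read 8.36, 8.18, 8.18 and 8.31 in control sham hearts, 8.42, 8.39, 8.42 and 8.37 for control TAC, 8.46, 8.38, 8.48 and 8.40 for cKO sham, and 8.55, 8.45, 8.51 and 8.40 in cKO TAC. All 12 other arrays lay above the 4 control sham arrays. Its log2 difference was 0.14 ± 0.062 for TAC in control hearts (SE, limma adjusted p = 0.582) and 0.17 ± 0.062 for cKO after sham (adjusted p = 0.384), values that share their controls. Of the 46 genes, Psmb1 and Psmd13 had no overlap and were higher for TAC in control hearts, and Psmd1, Psmd13 and the chaperone Psmd5 for cKO after sham, where 2.27% and 2.95% of probe sets did so. None was lower without overlap in either, against 1.46% and 2.32%. In the cKO group TAC left Psma5 higher and Psma1 and Psmd1 lower without overlap, against 2.28% and 2.08%. After TAC, Psmd14 was higher in cKO hearts and Psmb1, Psmc3 and Psmg4 lower without overlap, against 2.38% and 1.89%.

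Psmd14, the deubiquitinase of the lid that removes the ubiquitin chain, read 9.08, 9.05, 9.05 and 9.11 in control TAC hearts and 9.23, 9.18, 9.18 and 9.18 in cKO TAC hearts. Both groups were tight and did not overlap, and the log2 difference of 0.12 ± 0.10 had a limma adjusted p of 0.83 in a fit that pools the spread over all groups. In control sham hearts Psmd14 was 8.92, 8.74, 9.26 and 9.30, and the high values were on the arrays with Atf3 at 10.18 and 8.45. Psma5 was highest on the same arrays, at 6.96 and 6.89 against 6.56 and 6.59, while cKO sham 1, with Atf3 at 9.58, had 9.10 for Psmd14 and 6.65 for Psma5, close to its group. Psmd4, the ubiquitin receptor, was 7.83 ± 0.04 in control sham, 7.97 ± 0.06 for control TAC, 7.94 ± 0.06 for cKO sham and 7.97 ± 0.05 for cKO TAC hearts (SD, n = 4). Of the 6 ATPases, which form the unfolding ring, Psmc2 had the widest span of group means, from 7.59 ± 0.16 in control sham to 7.79 ± 0.11 in cKO TAC hearts (SD, n = 4), and the others spanned 0.083 to 0.154.

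**Figure D5:**
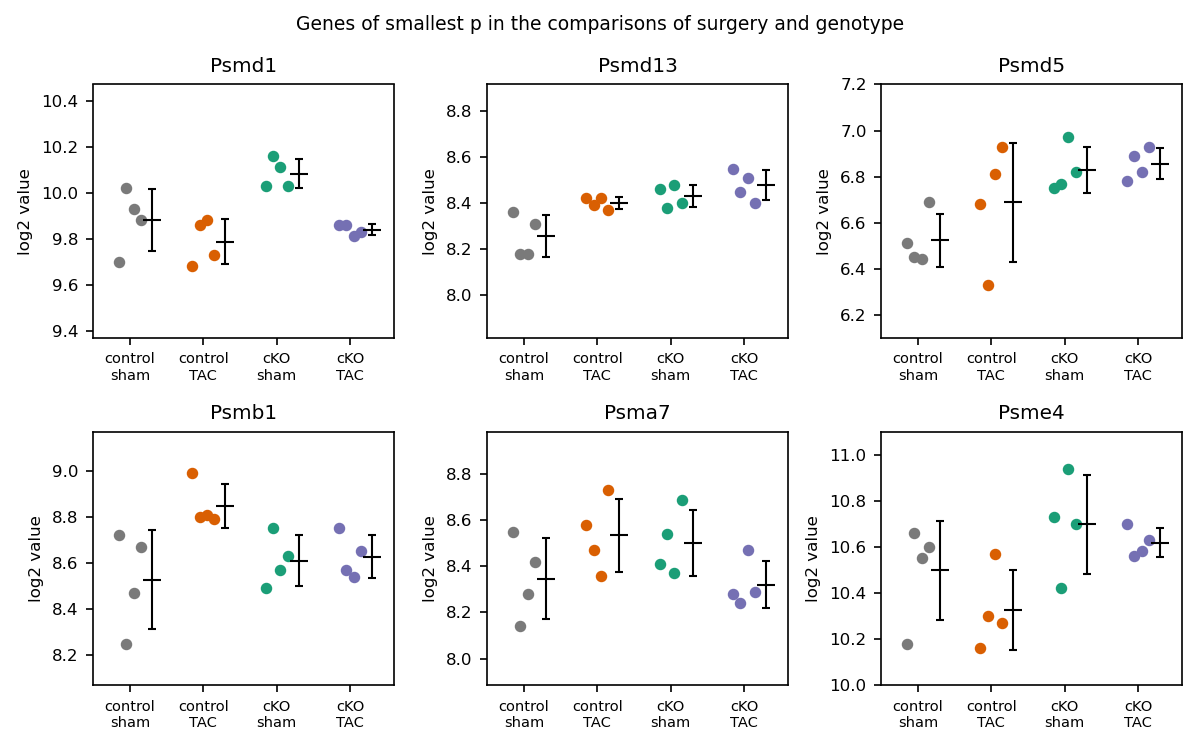
Log2 values (y axis, each panel 1.1 units tall) of 6 proteasome genes by group (x axis); points are arrays, and bars are the mean ± SD of 4. Psmd1 is highest in cKO sham, Psmd13 lowest in control sham, Psmb1 highest for control TAC, and no gene passed the adjusted threshold in any comparison.

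Of the activators, Psme4, a nuclear cap of the core particle linked to the degradation of acetylated histones, differed most. It read 10.18, 10.66, 10.55 and 10.60 in control sham hearts, 10.16, 10.30, 10.57 and 10.27 for control TAC, 10.73, 10.42, 10.94 and 10.70 for cKO sham, and 10.70, 10.56, 10.58 and 10.63 in cKO TAC. The cKO values lay between 10.42 and 10.94 and 4 of the 8 control values were below all of them. The log2 difference was 0.29 ± 0.12 after TAC (SE, limma adjusted p = 0.625), 0.20 ± 0.12 after sham (adjusted p = 0.558, and 0.094 without control sham 1) and 0.25 ± 0.083 averaged over surgery (adjusted p = 0.206). Without regard to genotype, TAC hearts were lower by -0.13 ± 0.083 (adjusted p = 0.567).

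Psme1 and Psme2, which form the interferon-inducible activator ring, had group means that spanned 0.128 and 0.088. Psme1 averaged 9.09 ± 0.13 in control sham, 9.0 ± 0.14 for control TAC, 9.13 ± 0.09 for cKO sham and 9.04 ± 0.29 for cKO TAC hearts (SD, n = 4), and its lowest value, 8.68, was on cKO TAC 2, the array with the highest leukocyte mean. Psme2 averaged 8.65 ± 0.11, 8.73 ± 0.18, 8.64 ± 0.18 and 8.71 ± 0.02 in the same order. Psme3, the nuclear form, had group means of 9.26 to 9.32. Psmf1, the inhibitor, averaged 6.85 ± 0.16, 6.96 ± 0.07, 6.93 ± 0.06 and 7.07 ± 0.16, a log2 difference after TAC of 0.125 averaged over genotype (limma adjusted p = 0.463).

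The assembly chaperones split by gene. Psmd5, a chaperone of the regulatory particle base, read 6.51, 6.45, 6.44 and 6.69 in control sham hearts, 6.68, 6.33, 6.81 and 6.93 for control TAC, 6.75, 6.77, 6.97 and 6.82 for cKO sham, and 6.78, 6.89, 6.82 and 6.93 in cKO TAC. All 8 cKO values were 6.75 or above and 6 of the 8 control values were below that. Its difference averaged over surgery, 0.24 ± 0.077 on the log2 scale (SE), had the smallest adjusted p of the 46 genes in any comparison, at 0.199 (limma). After sham it was 0.305 ± 0.11 (adjusted p = 0.384) and after TAC 0.17 ± 0.11 (adjusted p = 0.77), which was 0.048 without control TAC 2.

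Psmg2, a chaperone of alpha ring assembly, read 7.23, 7.41, 7.52 and 7.63 in control sham and 7.67, 7.70, 7.84 and 7.59 in cKO sham hearts, a log2 difference of 0.25 ± 0.087 (SE, limma adjusted p = 0.376). After TAC its genotypes averaged 7.49 ± 0.05 and 7.54 ± 0.09 (SD, n = 4). Psmg4, another alpha ring chaperone, differed the other way and read 6.06, 5.86, 5.88 and 5.91 in control TAC and 5.69, 5.82, 5.76 and 5.69 in cKO TAC hearts, with no overlap. That difference was -0.19 ± 0.078 (adjusted p = 0.634). Psmg1 had group means of 6.57 to 6.69, Psmd9 of 5.58 to 5.69 and Psmd10 of 7.34 to 7.47. Psmg3, with group means of 4.38 to 4.445, lay just above the filter.

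Genes of the same subcomplex were compared from array to array. With the group means removed from the 16 arrays, the median Pearson r over the 91 pairs of core genes was 0.34 and 85.7% of pairs were above 0. Over the 136 pairs of regulatory particle genes the median was 0.28, with 80.1% above 0. Between core and regulatory particle genes the median of 238 pairs was 0.088, and between regulatory particle genes and immunosubunits it was -0.067. The median over all pairs of the 13670 tested genes was 0.004. The closest pair was Psma1 and Psma2, at 0.89, and the most opposed was Psmb5 and Psmd4, at -0.74. All pairs share the same 16 hybridisations, and their RNA and hybridisation are common to them.

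Other genes of the pathway were taken from lists drawn up by function, and none was called in any comparison. Of 14 proteasome partners that passed the filter, 11 were higher in cKO than control hearts averaged over surgery, 5 higher and 1 lower at an unadjusted p under 0.05 where 8.24% and 6.68% of all probe sets were, with a median log2 difference of 0.076 against 0.0038 over all tested genes. Those of smallest p bind the regulatory particle: Ecpas, a proteasome adaptor, at 0.18 ± 0.059 (SE, limma adjusted p = 0.203), and the deubiquitinases Usp14 at 0.19 ± 0.072 (adjusted p = 0.246) and Uchl5 at 0.17 ± 0.068 (adjusted p = 0.266). Of 10 ubiquitin and shuttle genes 9 were higher (median 0.106), with Vcp, the segregase that extracts tagged proteins, at 0.16 ± 0.064 (adjusted p = 0.264).

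Of 16 ubiquitin ligases known from muscle, 12 averaged higher in cKO hearts (median 0.06), 5 of them at an unadjusted p under 0.05, where 8.24% of all probe sets were higher. Fbxo32, the ligase of muscle atrophy, was higher by 0.37 ± 0.13 on the log2 scale (SE, limma adjusted p = 0.22) and Klhl40, a muscle ligase adaptor, by 0.33 ± 0.094 (adjusted p = 0.176). After TAC averaged over genotype 3 of the 16 were higher and 13 lower (median -0.083). Cardiomyocyte markers averaged lower after TAC in 5 of 7 genes, 3 at an unadjusted p under 0.05, where 4.8% of probe sets were lower. They averaged higher in cKO hearts in 6 of 7, 2 at that threshold, where 8.24% of probe sets were higher. Their part in the ligase values was not tested. Fbxo30, a ligase of denervation atrophy, was lower after TAC by -0.37 ± 0.084 (adjusted p = 0.216). Zfand5, an activator of the proteasome, was lower after TAC by -0.24 ± 0.080 (adjusted p = 0.274). The median of the 46 proteasome genes in the same comparison was 0.016, with 33 of 46 above 0 and 53.7% of all probe sets above 0.

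For 5 genes, Psma3, Psma5, Psmb3, Psmc1 and Psmd2, the platform has more than 1 probe set. Over the 16 arrays the other probe sets correlated with the one used at r = 0.99 for Psma3, 0.92 for Psmb3, 0.93 for Psmd2 and 0.65 for Psmc1. Those of Psma5 disagreed, with r = 0.21 and a log2 difference after TAC averaged over genotype of 0.053 in the one used and -0.21 in the other, so the higher Psma5 values after TAC in cKO hearts hold for the probe set used and not for the other, where the log2 difference was -0.19. A probe set listed for both Psme2 and its near copy Psme2b was not used here, and probes of a gene with near-identical copies may pick up more than 1 of them.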

How the data were processed

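Total heart RNA was hybridised to 16 Affymetrix arrays, and the values were made with MAS5, per the submitters' processing notes, which give no version or scaling. The deposited log2 values were read as log2 from their range and used as the authors gave them. Of 35556 probe sets, the 21333 with a mean above the 40th percentile were fitted in R 4.3.3 with limma 3.58.1 (4 group means, trended variance, 12 residual degrees of freedom), and p-values were adjusted by Benjamini-Hochberg over all of them in each of 7 comparisons. The fit was also run on simulated data with planted differences larger than any of the proteasome genes here. That run does not show what the fit recovers at their size. Correlations used 100000 permutations, two-sided. Array values carry no read depth, so 4 arrays a group limit the precision. Replicate numbers were not treated as pairs in the main fit. The members, the gene lists, the promoters and the arrays left out were chosen with earlier results of these data known. Genes were named as key members of each role, as those of smallest p in a comparison, and, for gene values quoted beyond these, after their values were seen. Alternatives covered normalization, filter, variance trend, array weights, samples in the fit, probe set choice, a replicate block and left-out arrays.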

Additional observations from a re-analysis of the deposited data

Results flagged for a closer look

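Within groups of 4 arrays, 3 of 140 groups checked (26 genes and 9 list or role means) had an array far from the other 3 by Dixon's criterion, where chance gives about 1 in 20. Psmd14 read 9.23 on cKO TAC 1 against 9.18 on each of the others, a gap of 0.05 in a tight group. Psmd10, a chaperone of the regulatory particle, read 7.02 on control sham 2 against 7.41 to 7.47. Psmb1 read 8.99 on control TAC 1 against 8.79 to 8.81.

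Psma7 differed in direction between groups. The log2 difference after TAC was 0.188 in control and -0.182 in cKO hearts, and the difference between genotypes was 0.155 after sham and -0.215 after TAC. The test of both is the same interaction, -0.37, with a limma adjusted p of 1 and an unadjusted p of 0.02313.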

How the results depend on the processing

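None of the 46 proteasome genes was called under any of 27 alternatives in the 7 comparisons (189 runs). The smallest limma adjusted p was 0.08769, for Psmd14 in cKO hearts averaged over surgery without the 3 Atf3 arrays. Control sham then rests on arrays 1 and 2 alone, where Psmd14 read 8.92 and 8.74, below every other array. With the replicate block, 0 proteasome genes were called in all 7 comparisons. Same-numbered arrays correlated at -0.2048 to 0.1934 and 3 of 16 lay nearest their own number. The labels do not say what the numbers stand for, and this check cannot exclude a weak link between same-numbered arrays. Over all probe sets, calls went from 5 to between 0 and 27 for cKO after sham and from 4 to between 1 and 81 for cKO averaged over surgery, the highest both without control sham replicate 4. They reached 5 for TAC in control hearts with no filter, 2 for cKO after TAC with quantile normalization and at most 1 elsewhere.

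Direction was kept under every alternative by 26 of the 46 genes for TAC in control hearts and by 25 in cKO hearts. The counts were 31 for cKO after sham, 24 after TAC, 25 for TAC averaged, 30 for cKO averaged and 29 for the interaction. The remaining genes lost it under 1 alternative or more. Size moved as well: leaving out 1 array moved 30 of 84 single-gene differences by over 1.5 times. Among those printed, it gave 0.09 to 0.33 for Psmb9 and 0.068 to 0.162 for Psmb10 for TAC in cKO hearts, 0.126 to 0.246 for Psmb9 for TAC averaged over genotype, 0.094 to 0.292 for Psme4 for cKO after sham and 0.048 to 0.248 for Psmd5 for cKO after TAC. The values that turned among those 84, and role medians that moved by over their spread, follow as log2 differences, and the cause was not tested. Turned values of other genes are not listed. Without the 6 Myl7 arrays, the immunosubunit median was 0.055 and Psmb8 -0.002 for TAC in control hearts. For cKO after TAC it was 0.055, with 0.055 for Psmb8, 0.075 for Psmb9 and 0.025 for the chaperones. Psmb10 was -0.02 for cKO after sham, Psmb8 was 0.016 for cKO averaged over surgery, and the interaction of the immunosubunits and of Psmb8 was 0.078.

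Without the 3 Atf3 arrays, control sham keeps only arrays 1 and 2, whose means of the non-ATPase subunits were the lowest. The median for TAC in control hearts was then 0.108 over all 46 genes, 0.11 for non-ATPase subunits, 0.248 for the inhibitor and 0.162 for chaperones. For cKO after sham it was 0.153 over all, 0.148 for ATPases, 0.225 for non-ATPase subunits, 0.232 for the inhibitor and 0.272 for chaperones, and Psmb10 was -0.015. Psmb1 for TAC in cKO hearts was -0.022, and chaperones for cKO averaged over surgery were 0.118. For the interaction the medians were -0.13 over all, -0.217 for the beta ring, -0.136 for non-ATPase subunits, -0.127 for the inhibitor and -0.206 for chaperones, and Psmb9 was -0.028. Median centring gave 0.154 over all, 0.146 for ATPases, 0.159 for chaperones and 0.024 for Psmb8 for cKO after sham, 0 for Psmb1 for TAC in cKO hearts, 0.012 for Psmb10 for cKO averaged over surgery and -0.13 over all for the interaction. Quantile normalization gave -0.046 for Psmb10 for cKO after sham.

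Leaving out 1 array at a time gave -0.023 to 0.064 for Psmb1 for TAC in cKO hearts. For cKO after sham it gave 0.029 to 0.169 for chaperones, -0.01 to 0.147 for Psmb1, -0.21 to 0.03 for Psmb9 and -0.028 to 0.062 for Psmb10. For cKO after TAC it gave -0.08 to 0.01 for chaperones, -0.107 to 0 for Psmb9 and -0.099 to 0.008 for Psmb10, for cKO averaged over surgery -0.045 to 0.009 for Psmb10, and for the interaction -0.072 to 0.168 for Psmb9. With group means removed, r for Psmb9 was -0.2035 with interferon, -0.1402 with antigen presentation and -0.1192 with leukocyte genes, and for Psmb10 -0.1187 with antigen presentation. Psmb9 with antigen presentation was -0.1488 without the 6 Myl7 arrays. Without the 3 Atf3 arrays r was 0.7701 for Psmb8 and 0.738 for Psmb9 with antigen presentation, and 0.7896 with interferon and 0.7528 with leukocyte genes for Psmb10. Those arrays include cKO sham 1, where Psmb9 was lowest at 6.11, and control sham 4, among the farthest from the median antigen presentation mean. On all 16 arrays r of Psmb9 with antigen presentation was 0.1049.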
